A study of Mus musculus with 8 samples.

Results

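Axon guidance proteins are secreted or membrane-bound cues and the receptors that read them. Ephrins bind Eph receptor tyrosine kinases on neighbouring cells, semaphorins bind plexins with or without neuropilins as co-receptors, netrins bind DCC and UNC5 receptors, and SLITs bind ROBO receptors. They were first described in growing nerves, and epithelia and carcinomas, pancreatic cancer among them, use the same proteins to steer adhesion, repulsion and movement of cells. Most of these receptors act on small GTPases and through them on the actin cytoskeleton. The genes were chosen by symbol alone, as protein-coding genes of the deposited count table named Epha, Ephb, Efna, Efnb, Sema classes 3 to 7, Plxn, Nrp, Robo, Slit, Ntn or Unc5. The rule itself used no measured value, but it was set with earlier results of these data known. It took 71 of 39179 listed genes, which carry 70 symbols because Efna5 is listed under 2 identifiers. The rule also takes a pair of genes that are no guidance receptors. Unc50 is the homologue of a worm gene for receptor transport, and Unc5cl encodes a death-domain protein related to UNC5C.

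Polyadenylated RNA was sequenced from mouse pancreatic epithelial cancer cells after 72 h of shared culture with pancreatic stellate cells, which resemble fibroblasts, at 0.5% dialyzed serum. Sonic hedgehog (SHH), a secreted ligand, was neutralized with 20 µg/mL of antibody in 4 co-cultures, while 4 more had no SHH antibody. All 8 libraries came from green fluorescent cancer cells of mixed FVB/B6 strain, which were sorted away from the red fluorescent stellate cells. Both arms share 1 genotype, and the labels name no control antibody and do not say whether the cells are 1 line or several. The comparison asks which guidance transcripts of the cancer cells differ when SHH is neutralized in such a co-culture.

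Between 14953255 and 15733280 counts per library were assigned to genes with antibody and between 10009711 and 14602784 without, so every antibody library was deeper. Markers of ductal epithelium summed to between 7752 and 8176 counts scaled by library size (CPM) with antibody and between 7178 and 8232 CPM without, and all 10 were detected. The 14 stellate and fibroblast markers summed to between 38.7 and 66.8 CPM with antibody and between 40.1 and 62.9 CPM without, with Dcn and Lum at 0 in every library. Of 12 neuronal and Schwann cell markers Rbfox3 and Sox10 were at 0, and the list summed to between 9.65 and 11.5 CPM with antibody and between 9.61 and 10.99 CPM without. Endothelial markers summed to between 13.8 and 15.6 CPM with antibody and between 12.2 and 13.9 CPM without, with 5 of 8 under 10 counts in every library. Leukocyte markers, with Cd3e and Tyrobp at 0, summed to between 66.7 and 69.6 CPM with antibody and between 67.6 and 73.4 CPM without, most of it from Cd14. Acinar markers summed to at most 3.81 CPM with antibody and at most 5.81 CPM without, and Amy2a5, Amy2b, Cpa1, Pnlip and Ptf1a were at 0. Replicate 1 without antibody stood apart from the other 3 libraries of its arm, where the chi-square of its pairs, divided by the degrees of freedom, was 8.68 to 10.5. In the same arm the pair of replicates 2 and 3 gave 1.75, and the pairs of replicate 4 with 2 and 3 gave 4.37 and 3.75, above the 1.68 to 3.52 of the 6 antibody pairs.

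Of the 71 genes, 48 had enough counts to be tested, and 7 of these changed with the antibody. The neuropilin gene Nrp1, the plexin gene Plxnd1 and the semaphorin gene Sema4d rose, while the secreted semaphorin genes Sema3c and Sema3e and the Eph receptor genes Epha2 and Epha4 fell. All 7 changes were small, the largest being the 1.52-fold rise of Nrp1. Those of Plxnd1 and Sema3e passed the threshold in 4 and 13 of 18 alternative fits, and the others in all 18. A change was called at a Benjamini-Hochberg adjusted p under 0.05 over all 13626 genes tested, with edgeR's quasi-likelihood test on the counts, and 8.40% of all genes tested were called. Among the guidance genes this was 14.6%, 3 of 48 higher against a background of 4.53% and 4 of 48 lower against a background of 3.87%. Their median log2 fold change was 0.04, antibody over no antibody, where that of all genes tested was -0.00. An unadjusted p under 0.05 was found for 18 of the 48 genes, where 21.5% of all genes tested had one. Of the 48 genes 30 had a positive log2 fold change and 18 a negative one. Over all 13626 genes tested, 6604 were positive and 7022 negative. The 2 arms did not overlap in 12 of the 48 genes, 6 higher and 6 lower, where 14.3% of all genes tested did not overlap (7.71% higher and 6.56% lower). In bulk RNA of sorted cells a change in RNA per cell and a change in the share of cells that make it cannot be told apart.

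**Figure D1:**
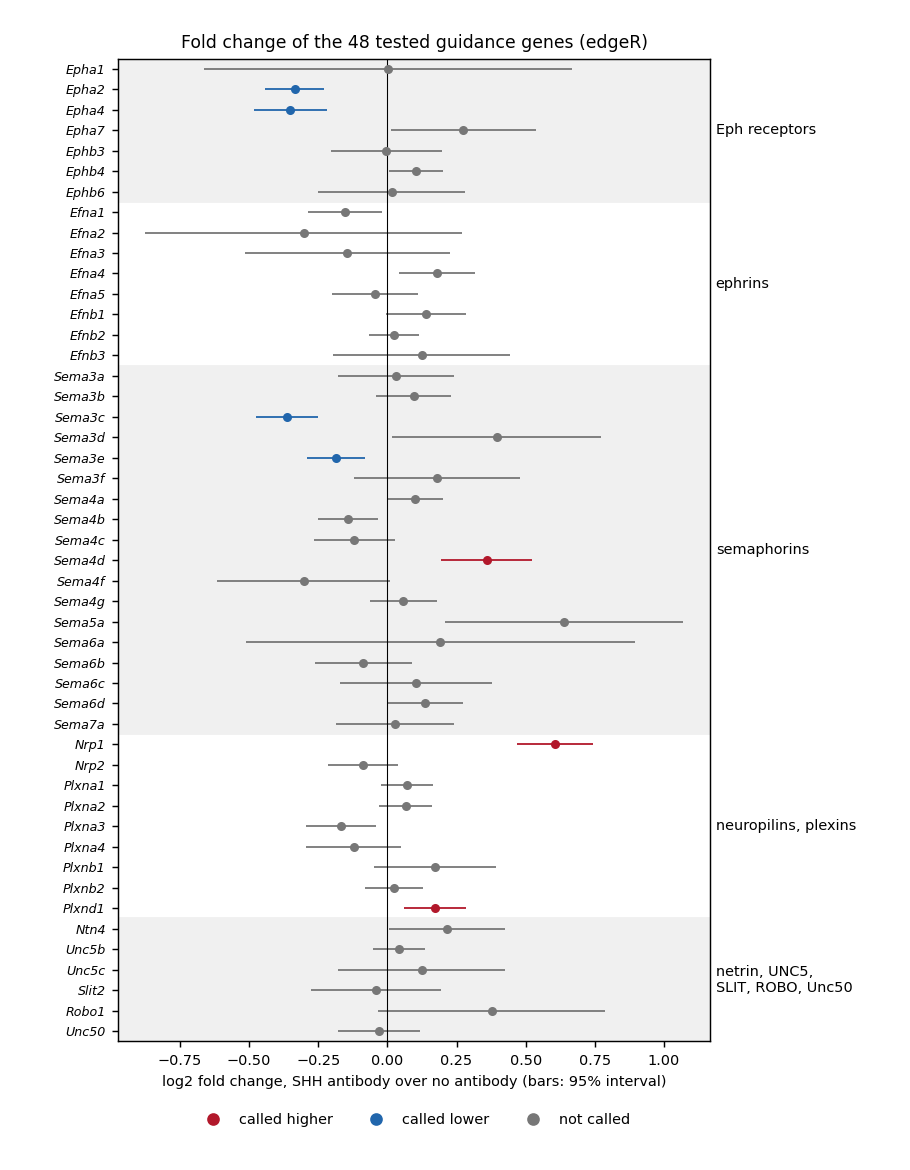
Log2 fold change of the 48 tested guidance genes, SHH antibody over no antibody, on the x axis (edgeR; bars are 95% intervals), with genes grouped by family down the page. Red marks the 3 genes called higher (Nrp1, Plxnd1, Sema4d), blue the 4 called lower (Epha2, Epha4, Sema3c, Sema3e) and grey the 41 not called.

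The start regions of called genes are shown so that the sequence beside the fold changes can be read. They run from 250 bases before to 50 bases after the transcript start, as RefSeq gives them on GRCm38.p6, for the 5 called genes whose RefSeq start lies within 100 bases of the start in the count table. Sema3c (535 bases away) and Sema4d (37064 bases away) are left out for that reason. The regions are chr8:128358823-128359122 for Nrp1, chr5:14025026-14025325 for Sema3e and chr4:141300971-141301270 for Epha2, all on the plus strand, and chr6:115994956-115995255 for Plxnd1 and chr1:77515039-77515338 for Epha4 on the minus strand. Each is written 5′ to 3′ on the gene's strand, and capitals mark matches to GGGCGG, the core letters of a GC box, or CATTCC, the core of a TEAD motif, on either strand.
Nrp1: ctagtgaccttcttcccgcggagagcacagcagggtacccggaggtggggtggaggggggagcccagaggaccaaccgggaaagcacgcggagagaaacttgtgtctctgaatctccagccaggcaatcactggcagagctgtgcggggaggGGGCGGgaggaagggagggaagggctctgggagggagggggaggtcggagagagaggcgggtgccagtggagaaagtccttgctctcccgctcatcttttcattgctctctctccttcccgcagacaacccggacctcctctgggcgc
Plxnd1: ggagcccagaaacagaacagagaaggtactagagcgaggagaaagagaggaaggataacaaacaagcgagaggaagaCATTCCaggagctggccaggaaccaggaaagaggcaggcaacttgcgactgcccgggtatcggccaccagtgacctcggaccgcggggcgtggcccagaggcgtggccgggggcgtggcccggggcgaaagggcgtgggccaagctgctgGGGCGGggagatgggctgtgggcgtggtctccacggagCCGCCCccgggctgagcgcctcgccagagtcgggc
Sema3e: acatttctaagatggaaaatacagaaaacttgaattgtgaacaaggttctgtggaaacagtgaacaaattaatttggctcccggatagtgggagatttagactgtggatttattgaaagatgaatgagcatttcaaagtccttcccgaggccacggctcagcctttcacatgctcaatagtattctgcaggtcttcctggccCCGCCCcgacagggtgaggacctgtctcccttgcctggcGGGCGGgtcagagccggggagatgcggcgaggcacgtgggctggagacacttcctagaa
Epha2: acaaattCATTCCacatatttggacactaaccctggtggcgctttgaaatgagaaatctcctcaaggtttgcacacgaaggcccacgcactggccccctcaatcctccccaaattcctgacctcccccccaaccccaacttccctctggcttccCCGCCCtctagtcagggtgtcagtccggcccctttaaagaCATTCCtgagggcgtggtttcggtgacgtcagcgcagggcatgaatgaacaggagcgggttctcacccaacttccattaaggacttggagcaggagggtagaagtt
Epha4: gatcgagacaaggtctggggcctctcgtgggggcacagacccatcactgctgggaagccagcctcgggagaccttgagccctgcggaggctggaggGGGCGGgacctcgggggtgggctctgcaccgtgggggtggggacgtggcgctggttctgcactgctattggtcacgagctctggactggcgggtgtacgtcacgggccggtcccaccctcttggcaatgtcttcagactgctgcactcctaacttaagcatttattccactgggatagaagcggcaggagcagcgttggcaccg
A start region was found for 42 of the 48 tested genes, 7 of them more than 100 bases from the start in the count table. GGGCGG occurred in 34 of the 42 regions, or 81.0%, against 66.4% of the 9218 regions found for the 13626 genes tested. The median G and C content was 65.0% against 61.3%. CATTCC was in 5 of the 42 (11.9%, against 11.9% of all), those of Epha2 and Plxnd1 among the printed ones. The AP-1 motif TGANTCA was in 1 of the 42 (2.38%, against 4.97% of all). The GLI motif GACCACCCA, the site of the transcription factors of the hedgehog pathway, was in none of the 42 windows, and in 0.195% of all. At so low a share, its absence from 42 windows cannot tell these genes from others. These counts describe letters in short windows, with overlapping matches counted separately.

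Of the 14 Eph receptor genes 7 were tested, and Epha2 and Epha4 fell. Epha2, a receptor tyrosine kinase for ephrin-A ligands that is abundant in many carcinomas (ENSMUSG00000006445, chromosome 4, 141301240 to 141329384, GRCm38), was the most abundant of all 71 genes per length, with 100.4 ± 2.88 reads scaled by length and library size (RPKM) with antibody and 126 ± 8.51 RPKM without (SD, n = 4 each). It ranked 333 of 22740 protein-coding genes by its mean RPKM. Its scaled level was 483, 459, 457 and 473 CPM in antibody replicates 1 to 4, and 631, 605, 596.5 and 530.5 CPM in replicates 1 to 4 without antibody. Every antibody library lay below every library without antibody. On the log2 scale the fold change was -0.34 ± 0.05 SE (1.26-fold lower, adjusted p = 0.000187). Within the Eph receptors Epha2 took 67.8%, 66.5%, 66.1% and 67.4% of the summed RPKM with antibody and 72.0%, 72.5%, 71.7% and 71.1% without.

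Epha4 encodes a receptor that binds ephrins of both classes (ENSMUSG00000026235, chromosome 1, 77367185 to 77515088). Its level was 62.3, 58.2, 56.7 and 61.9 CPM with antibody and 87.75, 75.3, 71.7 and 69.97 CPM without. The arms again did not overlap, and replicate 1 without antibody was the highest library. On the log2 scale the fold change was -0.35 ± 0.06 SE (adjusted p = 0.001). Epha2 and Epha4 kept their direction and their call in all 18 alternative fits.

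The other Eph receptors tested did not pass. Ephb4, the receptor of ephrin-B2 and the second most abundant Eph receptor, had 34.9 ± 0.824 RPKM with antibody and 32.3 ± 1.39 RPKM without (n = 4 each). Its arms did not overlap, at 159 to 167 CPM with antibody and 141 to 157 CPM without, but the change did not pass (0.10 ± 0.05 SE on the log2 scale, adjusted p = 0.204). Ephb4 shares 33 exon bases with Zan on the other strand. Ephb3 (log2 fold change -0.00), Ephb6, a receptor whose kinase domain is inactive (0.02), Epha1 (0.00) and Epha7 (0.27, adjusted p = 0.207) made up the rest. Epha1 had 5 to 13 counts per library and shares 236 exon bases with the far more abundant Zyx on the other strand, so its reads are uncertain. Ephb2, at 10, 8, 12 and 10 counts in the antibody libraries and 3, 5, 11 and 7 in those without, was below the filter. Epha3, Epha5, Epha6, Epha8, Epha10 and Ephb1 had at most 4 counts in any library.

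Of the 8 ephrin genes tested none was called by edgeR, and 2 had an unadjusted p under 0.05, Efna1 and Efna4, a share near the 21.5% of all genes tested. Efnb2, the transmembrane ligand of EphB4, was the second most abundant of all guidance genes, with 65.7 ± 0.188 RPKM with antibody and 64.2 ± 2.11 RPKM without (SD, n = 4 each). Its log2 fold change was 0.02, a fold between 0.955 and 1.08 at 95%. Efna1, a ligand of EphA2, had 31.8, 33.7, 34.6 and 34.8 CPM with antibody and 40.8, 39.0, 36.3 and 34.2 CPM without. The arms overlapped through replicate 4 without antibody (log2 fold change -0.15 ± 0.06 SE, adjusted p = 0.164). Efna4 ranged from 33.9 to 36.4 CPM in the antibody libraries and from 27.9 to 33.7 CPM in the others, which did not overlap, with a difference of 0.18 ± 0.07 SE on the log2 scale (adjusted p = 0.104). Efna4 shares 168 exon bases with a gene of low counts on the other strand. Efna5 (-0.04), Efnb1 (0.14), Efnb3 (0.12), Efna2 (-0.30) and Efna3 (-0.14) had adjusted p between 0.256 and 0.794. Efna3 shares 344 exon bases with Gm15998 on the other strand, whose mean of 46.1 counts exceeds its own 33.4. DESeq2 and limma voom called no ephrin gene either.

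**Figure D2:**
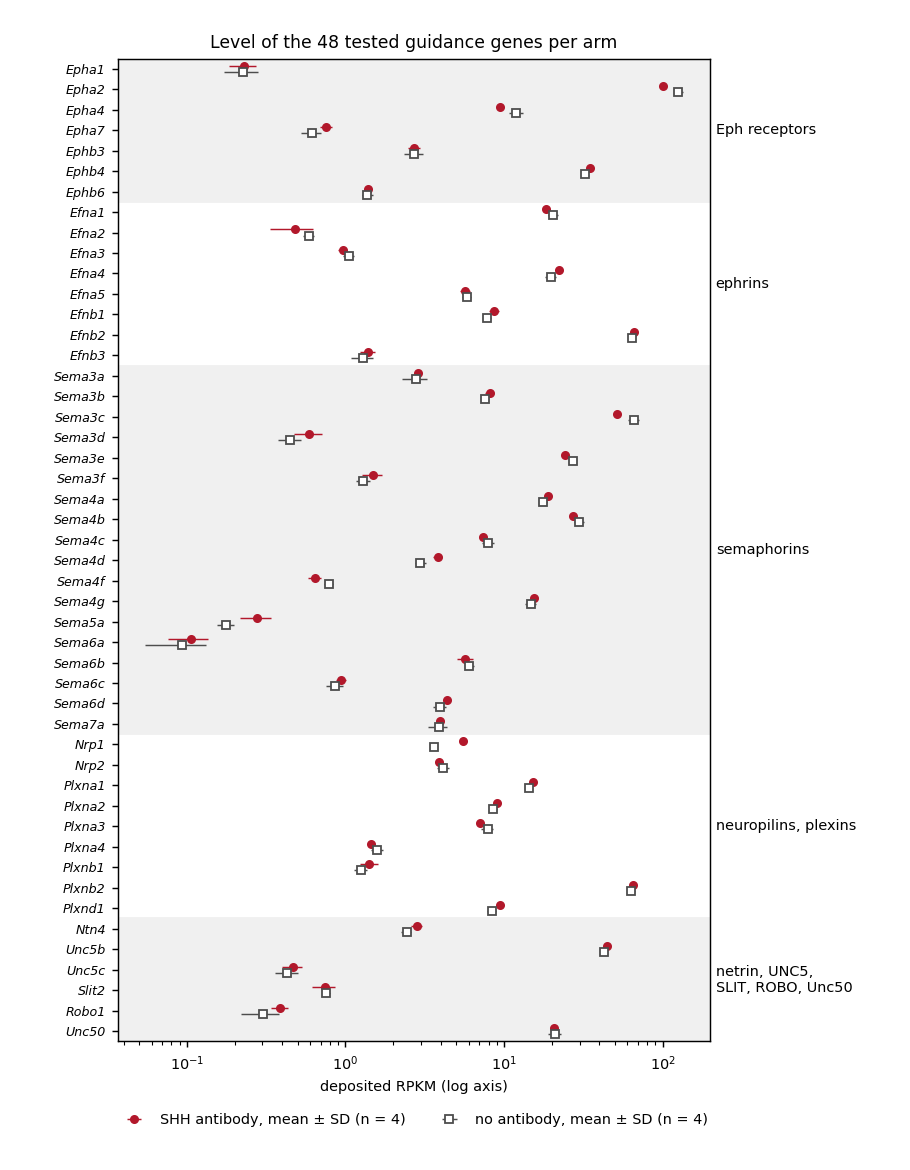
Deposited RPKM values of the 48 tested guidance genes on a log axis, with filled circles for the mean of the 4 SHH antibody libraries, open squares for the mean of the 4 libraries without antibody, and bars for the SD. Epha2, Efnb2, Plxnb2, Sema3c and Unc5b were the most abundant per length, and Nrp1 is the clearest shift between arms.

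Class 3 semaphorins are secreted, and their 2 most abundant members in these cells both fell. Sema3c signals through neuropilins with plexins (ENSMUSG00000028780, chromosome 5, 17574281 to 17730268). Sema3c had 370.3, 366, 351 and 379 CPM with antibody and 527, 443, 449.6 and 463 CPM without. All antibody libraries were below the others, and replicate 1 without antibody was the highest. The log2 fold change was -0.36 ± 0.05 SE (1.29-fold lower, adjusted p = 0.000109), and it was called in all 18 alternative fits. Sema3c held 57.9% ± 0.570 of the summed RPKM of the class with antibody and 62.4% ± 0.874 without (SD, n = 4 each).

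Sema3e differs from its relatives in binding plexin D1 without a neuropilin (ENSMUSG00000063531, chromosome 5, 14025276 to 14256689). Its level was 175, 185, 177 and 195 CPM with antibody and 219, 199, 199 and 215 CPM without. The arms did not overlap, but antibody replicate 4 lay close to replicates 2 and 3 without antibody. The log2 fold change was -0.19 ± 0.05 SE (adjusted p = 0.021). This call was lost on the log2 RPKM scale (adjusted p = 0.0671 with a pseudocount of 1 and 0.0672 with 0.1), and without antibody replicate 1 (adjusted p = 0.0779), 2 (0.0596) or 3 (0.1005). It held in the other 13 of 18 alternative fits.

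The remaining class 3 genes were lower in level and not called. Sema3a, the classical repellent of sensory axons, had 2.86 ± 0.118 RPKM with antibody and 2.77 ± 0.500 RPKM without (n = 4 each), and a log2 fold change of 0.03. Sema3b (0.10, adjusted p = 0.438) and Sema3f (0.18, adjusted p = 0.516) were not called. Sema3d (0.39 ± 0.18 SE) had an unadjusted p of 0.0411 and did not pass after adjustment (adjusted p = 0.208). Sema3g had 1 to 9 counts per library and was not tested.

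Of the 6 class 4 semaphorins, which are membrane proteins that can be shed, Sema4d rose. SEMA4D is the ligand of plexin B1 (ENSMUSG00000021451, chromosome 13, 51701246 to 51793747). Sema4d stood at 24.96, 23.2, 23.3 and 26.6 CPM with antibody and at 20.1, 20.2, 19.7 and 16.8 CPM without. All antibody libraries were above the others, and replicate 4 without antibody was the lowest. The log2 fold change was 0.36 ± 0.08 SE (1.28-fold, adjusted p = 0.00564), called in all 18 alternative fits, with 0.29 (adjusted p = 0.027) when that lowest library was left out. The more abundant Sema4b, at 27.2 ± 0.352 RPKM with antibody and 29.8 ± 2.10 RPKM without (n = 4 each), was not called (log2 fold change -0.14 ± 0.05 SE, adjusted p = 0.0986). It was called lower when replicate 4 without antibody was left out (-0.19, adjusted p = 0.0251), and when replicates 1 and 4 of that arm were (-0.13, adjusted p = 0.0205). Sema4a had 102.4 to 103.6 CPM with antibody and 90.03 to 101.6 CPM without, arms that did not overlap, yet the log2 fold change was 0.10 (adjusted p = 0.233). Sema4f, at 2.86 to 3.60 CPM with antibody and 3.83 to 4.40 CPM without, did not overlap either (log2 fold change -0.30 ± 0.15 SE, adjusted p = 0.253). Sema4c (-0.12) and Sema4g (0.06) were not called.

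Among the classes 5 to 7 none of 6 tested genes was called by edgeR, and 2 had an unadjusted p under 0.05, where 21.5% of all genes tested did. These were Sema5a and Sema6d, taken up after their values were seen. Sema5a had the largest log2 fold change of all 48 genes, 0.64 ± 0.21 SE (adjusted p = 0.0596), from 33, 46, 48 and 56 counts with antibody and 23, 22, 18 and 29 without. The scaled levels overlapped, since antibody replicate 1 stood at 2.12 CPM and replicate 2 without antibody at 2.20 CPM. Sema5a was called higher without a filter on low counts (adjusted p = 0.0386) and without antibody replicate 1 (adjusted p = 0.0247). Sema6d (0.14 ± 0.07 SE, adjusted p = 0.23) was called higher when replicate 1 without antibody was left out (0.21, adjusted p = 0.0209), and when replicates 1 and 4 of that arm were (0.18, adjusted p = 0.0468). Sema7a, a membrane-anchored semaphorin that binds integrins and plexin C1, had a log2 fold change of 0.03. Sema6a (0.19), Sema6b (-0.09) and Sema6c (0.10) had adjusted p between 0.608 and 0.806, and Sema5b had no count in any library.

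Neuropilin 1 had the clearest change of all guidance genes. Nrp1 encodes a co-receptor of class 3 semaphorins and of VEGF-A (ENSMUSG00000025810, chromosome 8, 128359073 to 128505462). Its level was 33.2, 31.5, 32.6 and 33.2 CPM with antibody and 21.7, 21.03, 22.9 and 20.2 CPM without. The libraries of each arm lay close together and far from the other arm. The log2 fold change was 0.61 ± 0.07 SE (1.52-fold, adjusted p = 2.89e-06), and only 34 genes of the 13626 tested had a smaller p. Nrp1 kept its call in all 18 alternative fits, with log2 fold changes from 0.50 to 0.64. An annotated microRNA, Mir1903, overlaps Nrp1 on the same strand and had 0 counts.

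Its paralog Nrp2, which also binds class 3 semaphorins, had 37.2, 36.9, 37.3 and 36.7 CPM with antibody and 36.3, 39.9, 43.5 and 38.2 CPM without (log2 fold change -0.09 ± 0.06 SE, adjusted p = 0.448). Nrp1 made up 58.9%, 57.9%, 58.5% and 59.3% of the summed neuropilin RPKM with antibody and 49.1%, 45.9%, 45.8% and 46.0% without. Per length Nrp1 was the more abundant neuropilin in every antibody library and Nrp2 in every library without antibody. The ratio of Sema3c to Nrp1, ligand over co-receptor in RPKM, was 9.23, 9.60, 8.91 and 9.43 with antibody and 20.1, 17.4, 16.3 and 19.0 without. This ratio restates the fall of Sema3c and the rise of Nrp1, and it leaves out Nrp2.

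**Figure D3:**
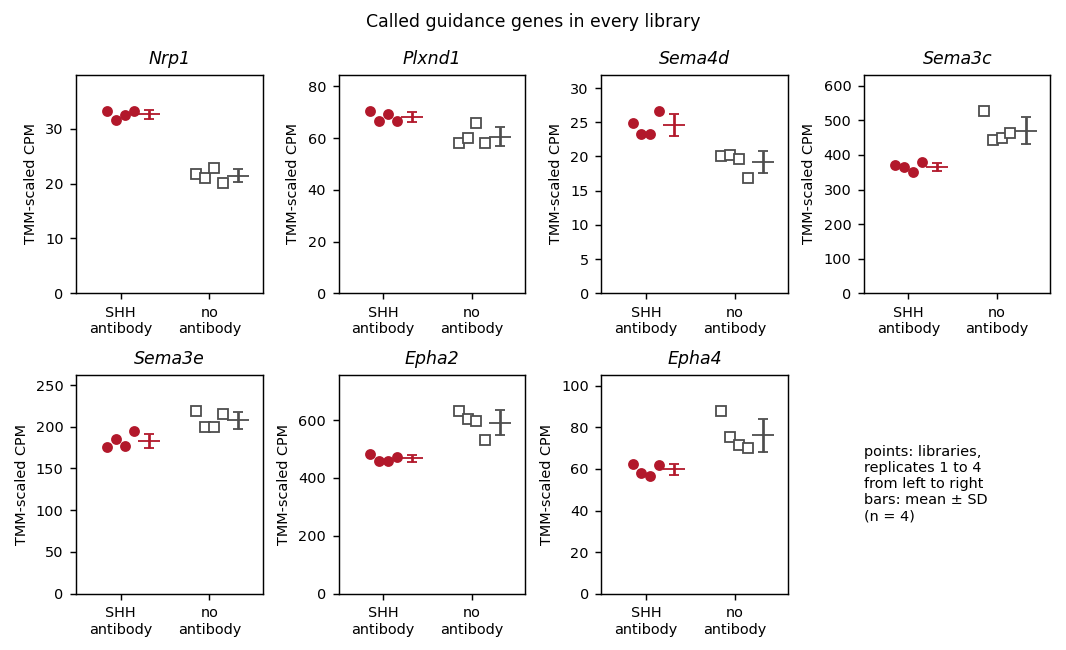
TMM-scaled CPM of the 7 called guidance genes in every library, SHH antibody as filled circles and no antibody as open squares, each with mean ± SD (n = 4). The arms do not overlap in any of the 7 panels; Nrp1 is 31.5 to 33.2 CPM with antibody and 20.2 to 22.9 CPM without.

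Plexins are the signal-transducing receptors of semaphorins, and of 7 tested Plxnd1 rose slightly. PLXND1 is the receptor of SEMA3E (ENSMUSG00000030123, chromosome 6, 115954811 to 115995005). Plxnd1 had 70.4, 66.4, 69.2 and 66.5 CPM with antibody and 58.1, 60.1, 65.85 and 58.1 CPM without. The arms were separated by a narrow gap, with replicate 3 without antibody next to the antibody libraries. The log2 fold change was 0.17 ± 0.05 SE (1.13-fold, adjusted p = 0.048). The call held in 4 of 18 alternative fits, and in 1 of the 8 that left out 1 library (adjusted p from 0.0196 to 0.148). It was lost with RLE scaling (adjusted p = 0.0507) and DESeq2 (adjusted p = 0.0588), and the log2 fold change was 0.11 without replicates 1 and 4 of the arm without antibody (adjusted p = 0.182).

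Plxnb2, a receptor of class 4 semaphorins, was the most abundant plexin, at 64.8 ± 1.09 RPKM with antibody and 63.4 ± 4.10 RPKM without (SD, n = 4 each). Its log2 fold change was 0.02, with a 95% interval of the fold from 0.946 to 1.09, and it held 59.7% ± 0.254 of the summed plexin RPKM with antibody and 60.0% ± 1.16 without. Plxna3 did not overlap between arms, at 54.5 to 56.7 CPM with antibody and 58.1 to 70.9 CPM without, and was not called (log2 fold change -0.17 ± 0.06 SE, adjusted p = 0.0929). Plxna1 (0.07), Plxna2 (0.07), Plxna4 (-0.12) and Plxnb1, the SEMA4D receptor (0.17), had adjusted p between 0.374 and 0.455. Plxnb3 had at most 4 counts in any library and Plxnc1 had none.

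Of the receptors and ligands of the netrin and SLIT systems none of the 5 tested was called by edgeR, and 1, Ntn4, had an unadjusted p under 0.05, a share near the 21.5% of all genes tested. Unc5b, a netrin receptor that can trigger cell death when unbound, was the fifth most abundant guidance gene, with 44.3 ± 1.38 RPKM with antibody and 42.8 ± 1.17 RPKM without (n = 4 each). Its log2 fold change was 0.04, with a 95% interval of the fold from 0.966 to 1.10. It held 98.7% to 99.1% of the summed UNC5 RPKM in the antibody libraries and 98.9% to 99.1% in the others. Of the netrins Ntn4, a netrin that binds laminins, was tested, at 9.73 to 11.6 CPM with antibody and 8.56 to 9.92 CPM without (log2 fold change 0.22 ± 0.10 SE, adjusted p = 0.221). Ntn1, the founding ligand of the UNC5 and DCC receptors, was counted 8, 11, 8 and 9 times in the antibody libraries and 3, 7, 9 and 8 in the libraries without it, and was below the filter. Ntn3 had at most 7 and Ntn5 at most 5 counts in any library. Unc5c, another netrin receptor, differed by 0.12 on the log2 scale (adjusted p = 0.681). Dcc, the netrin receptor, had no count in any library.

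Slit2, a secreted repellent, had 9.39, 12.6, 9.48 and 13.02 CPM with antibody and 10.75, 11.4, 12.1 and 11.6 CPM without, arms that overlapped fully (log2 fold change -0.04). Its receptor gene Robo1 stood at 2.42 to 3.16 CPM with antibody and at 1.85 to 3.18 CPM without (0.38 ± 0.20 SE, adjusted p = 0.281). Slit1 was counted 9, 13, 18 and 8 times in the antibody libraries and 7, 4, 3 and 5 times in the others, which overlapped after scaling, and was not tested. Robo2, Robo3, Robo4, Slit3, Unc5a and Unc5d had at most 2 counts in any library. Unc50, at 20.7 ± 1.012 RPKM with antibody and 20.9 ± 1.96 RPKM without, had a log2 fold change of -0.03, and Unc5cl had at most 2 counts. A gene at 0 counts in an antibody library is limited to between 0.191 and 0.201 CPM, and in a library without antibody to between 0.205 and 0.30 CPM, taking 3 counts as the floor of counting error.

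Genes that work with these ligands and receptors were taken as 5 lists of 112 entries, of which 98 were tested and 9 called, 3 higher and 6 lower, where 8.40% of all genes tested were called (4.53% higher and 3.87% lower). Of 29 small GTPases and genes that act with them 3 fell and 1 rose, with a median log2 fold change of 0.03. Rnd1, a GTPase that binds plexins, fell to 16.7 ± 0.743 CPM with antibody, against 22.7 ± 2.31 CPM without (log2 fold change -0.44 ± 0.08 SE, adjusted p = 0.0013). The R-Ras relative Rras2 fell by 0.24 on the log2 scale (adjusted p = 0.0034), and Rnd3, a relative of Rnd1, fell by 0.19 (adjusted p = 0.0271). Rock2, a kinase that acts on actomyosin, rose (0.20 ± 0.05 SE, adjusted p = 0.0173), though its arms overlapped. Rnd3 held its call in 10 and Rock2 in 12 of 18 alternative fits.

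Of 35 adaptors, kinases and cytoskeletal effectors 1 fell and 1 rose, with a median log2 fold change of -0.00. Fyn, a Src family kinase that acts downstream of semaphorin 3A in neurons, was at 23.4 ± 1.43 CPM with antibody and 31.3 ± 1.39 CPM without (-0.42 ± 0.07 SE, adjusted p = 0.0003). Dpysl2, which encodes the semaphorin mediator CRMP2, rose (0.20 ± 0.06 SE, adjusted p = 0.0247) and held its call in 13 of 18 alternative fits. Limk1, the kinase of cofilin (-0.19, adjusted p = 0.065), and Mical2, an actin oxidase (0.16, adjusted p = 0.0688), did not pass.

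Of 12 genes for proteases that cut guidance proteins, or for subunits of such proteases, Adam10, a sheddase of ephrins, rose (0.17 ± 0.05 SE, adjusted p = 0.0287). Its call held in 12 of 18 alternative fits and in 2 of 8 fits that left out 1 library. Adam17 (0.08), Pcsk7 (0.10) and Pcsk6 (0.06) were not called, and the list's median was -0.01. Among 14 other guidance ligands and receptors none was called by edgeR. The smallest p were those of Nrcam (-0.50 ± 0.17 SE, adjusted p = 0.0846), Sdc4 (-0.12, adjusted p = 0.0939), Flrt3 (0.12, adjusted p = 0.116) and Sdc1 (0.11, adjusted p = 0.157). These 4, taken by smallest p, were the only ones of the 14 with an unadjusted p under 0.05, where 21.5% of all genes tested had one. DESeq2 called Sdc4, and limma voom called none of the list. The median of that list was -0.04.

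VEGF ligands and their receptors share neuropilins with semaphorins. Of the 8 genes tested 2, both ligands, fell, where 3.87% of all genes tested were called lower. Vegfa, whose product binds NRP1, was at 164 ± 10.04 CPM with antibody and 219.8 ± 16.4 CPM without (-0.42 ± 0.06 SE, adjusted p = 3.12e-05). Pgf, placental growth factor, averaged 22.1 ± 1.00 CPM with antibody and 34.1 ± 4.19 CPM in cells without it (-0.62 ± 0.08 SE, adjusted p = 2.68e-05). Both were called in all 18 alternative fits, and their arms did not overlap. Vegfb (-0.09) and Kdr (0.64 ± 0.35 SE, adjusted p = 0.298) were not called. Kdr was under 1 CPM on average in either arm. The receptor genes Flt1, at 140 CPM with antibody and 141 CPM without (-0.01), and Flt4 (-0.11) were not called either. The median of the 8 genes was -0.06.

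**Figure D4:**
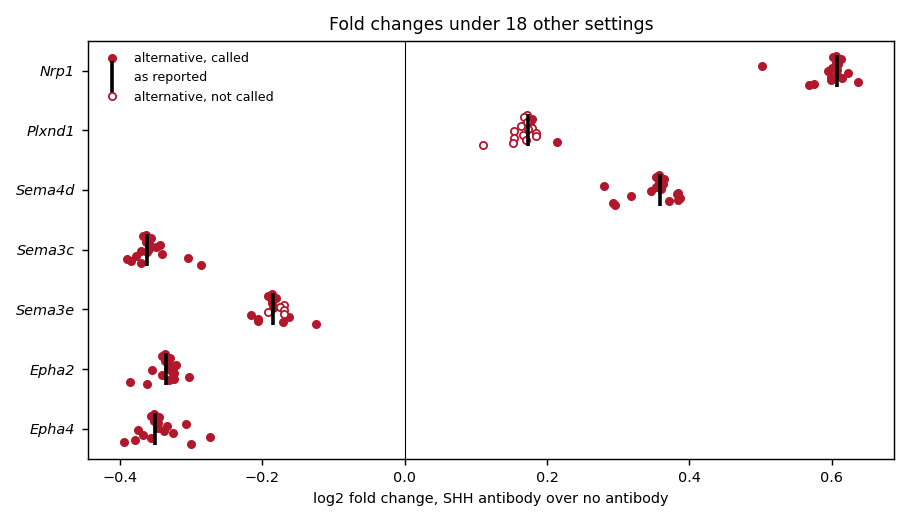
Log2 fold change of the 7 called guidance genes on the x axis, as reported (black bar) and under 18 other settings (circles, filled where the gene was called and open where it was not). Nrp1, Sema4d, Sema3c, Epha2 and Epha4 are filled throughout, Sema3e is filled in 13 and Plxnd1 in 4 of the 18.

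Depth and single marker genes moved with the arms. The summed stellate markers overlapped between arms, as given above, and of 7 tested members 5 had a positive log2 fold change, with a median of 0.36 over the list. Col1a1 (0.36), Col1a2 (0.47), Col3a1 (0.66), Col6a3 (0.24) and Pdgfrb (0.61) did not pass, with adjusted p between 0.156 and 0.707. Sparc (-0.19, adjusted p = 0.257) did not pass either, and Pdgfra fell (2.78 ± 0.489 CPM with antibody and 4.97 ± 0.888 CPM without, n = 4 each, edgeR adjusted p = 0.0027). Among the other marker lists, the epithelial gene Epcam (0.28, adjusted p = 0.022) and the neuronal gene Map2 (0.78, adjusted p = 0.0355, at 3.00 CPM with antibody and 1.73 CPM without) were higher with antibody. Each was the only called gene of its list, 1 of 10 ductal and 1 of 4 neuronal and Schwann cell markers tested. Of all genes tested 8.40% were called, 4.53% higher and 3.87% lower. The medians of the ductal list and of the neuronal and Schwann cell list were 0.04 and 0.01. The part of these differences in the guidance genes was not tested.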

How the data were processed

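RNA was sequenced from sorted cancer cells of 8 co-cultures, 4 with SHH antibody and 4 without, labelled as biological replicates. The genotype, which both arms share, is not reported here. The arms come from the treatment label, since the protocol text is the same for all 8. The deposited counts are raw read counts per gene, and the deposited RPKM values are those counts scaled by gene length and library size by the authors. CASAVA 1.8.2, TopHat2 2.0.9 and the build GRCm38 are named, per the submitters' processing notes, and the libraries are strand-specific per the labels. For the counting tool, annotation release and strand setting, nothing is given in the sources used here.

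Counts were filtered with filterByExpr, scaled by TMM and tested over all genes with edgeR 4.0.16 (quasi-likelihood, R 4.3.3), with Benjamini-Hochberg adjustment over all 13626 genes tested and calls at 0.05. CPM are TMM-scaled, standard errors come from the F statistic, and the script was tested on simulated data. Alternatives used RLE and upper quartile scaling, other filters, DESeq2 1.42.0, limma 3.58.1 (voom, and log2 of RPKM plus 1 or 0.1), the replicate block and left-out libraries. Standard errors and 95% intervals of fold changes include the spread between libraries, while floors of 3 counts cover counting error only, at 10009711 to 15733280 counts per library. Named genes were those called, Epha2, the 10 highest by RPKM, those whose arms did not overlap at 1 CPM or more on average, those gaining a call under 3 or more alternatives, and up to 4 genes per pathway list by p. Other members are given to complete their class, and the list genes Dcc, Neo1, Flt1 and Flt4 to complete the account of receptors. Members and lists were chosen with earlier results of these data known. The depositor's coordinates are GRCm38, and sequences are from RefSeq on GRCm38.p6.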

Additional observations from a re-analysis of the deposited data

Results flagged for a closer look

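In 3 of 78 groups of 4 libraries checked, 1 library stood far from the other 3, where chance alone flags about 1 group in 20. Sema4d was at 16.84 CPM in replicate 4 without antibody, with the other 3 libraries of that arm between 19.67 and 20.23 CPM. Plxnb2 was at 407.6 CPM in the same library, with the others between 462 and 471.5 CPM. Fyn was at 25.5 CPM in antibody replicate 4, with the others between 22.54 and 22.84 CPM. The cause of these values was not tested.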

How the results depend on the processing

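Between 5 and 8 guidance genes were called in the 18 alternative fits, against 7 as reported, and between 5 and 7 when 1 library was left out. Of all genes 1144 were called, 675 on log2(RPKM + 1), 670 on log2(RPKM + 0.1), 2263 without replicates 1 and 4 of the arm without antibody, and 679 to 1485 when 1 library was left out. Of the pathway lists 9 genes were called, 20 without replicates 1 and 4 of the arm without antibody, and 5 to 12 when 1 library was left out. The cause was not tested. The sign turned, for genes that were not called, in Efnb2 (-0.014), Unc50 (0.097), Plxnb2 (-0.022) and Pcsk6 (-0.015) without replicates 1 and 4 of the arm without antibody, and also with 1 library left out in Unc50 (range -0.070 to 0.023, positive without replicate 1 of that arm) and Plxnb2 (range -0.025 to 0.044, negative without replicate 4 of that arm). Of 700 values of 39 named genes 633 kept direction and side of the threshold, 44 lost and 17 gained a call, and 6 turned sign.

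With the replicate block 6 guidance genes, 1005 of all genes and 9 pathway genes were called. Same-numbered libraries of the 2 arms had correlations of -0.0246, -0.0285, 0.00662 and 0.00382 in their deviations from the arm means. Pairs with different numbers ranged from -0.0701 to 0.0622. No closer link was seen between same-numbered libraries, but correlations over all genes cannot show a batch that acts on few genes. Genes of few counts, such as Slit1, Ntn1 and Ephb2, were below the filter; without a filter 64 guidance genes were tested and 8 called, the 7 reported and Sema5a. Reads of genes overlapping on the other strand are uncertain.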
